A study of Mus musculus with 2254 samples.

Results

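Calcium store and calcium channel genes were followed here in single cells of the mouse brain vessel wall. They are 10 of the 30950 entries of the deposited count table: the store buffers Casq2 and Casq1, the store pump genes Atp2a2 and Atp2a3 with the pump regulator Pln, the release channel genes Ryr2, Ryr3 and Itpr1, and the voltage-gated channel genes Cacna1c and Cacna1d. They were taken by name, as genes of one pathway, but Casq2 was selected on its level in KO against WT smooth muscle-range cells, so that difference is a description and supports nothing. The cells came from adult C57BL/6 mice that carried SM22-Cre with Rosa26-stop-tdTomato, a reporter that labels cells in which the smooth muscle promoter SM22 has driven Cre. One group was Notch3 KO and the other Notch3 WT, and both carried the same reporter. Cells were sorted by fluorescence into 384-well plates and sequenced over whole polyadenylated transcripts with Smart-seq2. Each genotype had 1127 deposited cells on 3 plates, KO on plates 043, 467 and 471 and WT on plates 044, 468 and 469. No label names an animal, so each genotype is 1 sample, the plates may be technical repeats, and no p-value is given.

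In smooth muscle, contraction is set by calcium that enters through voltage-gated channels or leaves the sarcoplasmic reticulum through ryanodine and IP3 receptors. SERCA pumps return calcium to this store, phospholamban holds the pump back until it is phosphorylated, and calsequestrin buffers the calcium inside the store. Calsequestrin is best known from striated muscle, where it sits beside the ryanodine receptor. In the brain, arteriolar smooth muscle and the pericytes of capillaries form a graded series of mural cells.

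Casq2 and Pln are the 2 genes on which the results turn, Casq2 because it was high towards the pericyte end of the series and low in KO, Pln because it was the most abundant of the set. Casq2 lies at chr3:102086415-102146514 (+ strand) and Pln at chr10:53337667-53345987 (+ strand) in GRCm38. The 250 bases before each RefSeq start site, from GRCm38.p6 (chr3:102086165-102086414 and chr10:53337436-53337685, both on the + strand), are printed 5′ to 3′ with the only MEF2 match in capitals.
Casq2: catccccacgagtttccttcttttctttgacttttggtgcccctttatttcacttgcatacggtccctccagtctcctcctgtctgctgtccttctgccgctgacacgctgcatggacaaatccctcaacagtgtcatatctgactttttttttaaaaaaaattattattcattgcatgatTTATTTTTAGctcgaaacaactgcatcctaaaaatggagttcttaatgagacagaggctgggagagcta
Pln: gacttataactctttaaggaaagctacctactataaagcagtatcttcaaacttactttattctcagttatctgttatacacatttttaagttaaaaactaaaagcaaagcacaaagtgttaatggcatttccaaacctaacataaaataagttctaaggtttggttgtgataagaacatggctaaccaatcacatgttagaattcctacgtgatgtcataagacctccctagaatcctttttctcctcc
The search covered both strands of the window from 250 bases before to 50 bases after each start site. It used the RBPJ core TGGGAA (RBPJ is the DNA-binding partner of Notch), the E-box CANNTG, and the MEF2 and CArG motifs by name, and no MEF2, E-box and TGGGAA match overlapped another in these 2 promoters. The MEF2 match of Casq2 began at position -69, with E-boxes at -200 and -52, and the window held no TGGGAA. The Pln window held E-boxes at -59 and 9 and TGGGAA from position 27. Of 32851 RefSeq promoters of the same length, 25.6% held TGGGAA, 72.3% an E-box, 3.19% a MEF2 match and 1.63% a CArG match. Of the 7 genes of the set with a promoter sequence (10 sequences), Casq2 alone had a MEF2 match, Pln alone had TGGGAA and none had a CArG match. These matches are letters in a window and not shown to be sites.

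The table held 2254 cells with totals of 49473 to 763059 counts (median 291872), and 2252 passed the filter of 50000 counts and 1000 genes. Clustering without Notch3 and without the 10 genes gave 16 clusters, of which 7 were best described by the smooth muscle or pericyte marker lists and held 1220 mural cells (775 KO, 445 WT). Mural cells were 73.3%, 59.7% and 73.3% of the kept cells on KO plates 043, 467 and 471. On WT plates 044, 468 and 469 they were 89.7%, 11.2% and 16.9%, so plates 468 and 469 held mostly other cells. Mural cells were placed along their range by single genes, in this order: Cnn1-high (at least 25.7 CPM of the smooth muscle gene Cnn1; 289 KO and 235 WT cells), Kcnj8-high (at least 100 CPM of the pericyte gene Kcnj8; 128 and 28), Rgs5-high (at least 122 CPM of Rgs5, a gene of small arterioles and pericytes; 332 and 169) and Cnn1-low (the rest; 26 and 13). These are ranges and not cell types, and 41 mural cells (3.36%) lay within 1 log2 unit of a cut. Cnn1-high and Cnn1-low cells together are called the smooth muscle range. Counts were summed per plate and scaled to CPM (counts scaled to the library total times a TMM normalization factor). CPM of single cells used the total of the cell alone. Differences are KO minus WT in mean log2(CPM + 1) over plates. Notch3, the targeted gene, was at 53.6, 86.2 and 111 CPM on the KO plates (043, 467, 471) and 165, 589 and 838 CPM on the WT plates (044, 468, 469) of the smooth muscle range, so every KO plate lay below every WT plate while 70.5% of KO cells still held a Notch3 read. The deleted part of the gene is not given in the sources used here.

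Casq2, the cardiac-type calsequestrin, was lower in KO than in WT cells in the mural ranges that could be compared, though not in every mural cluster. In the smooth muscle range it was at 3.14, 8.36 and 5.00 CPM on KO plates 043, 467 and 471, against 65.0, 119 and 67.8 CPM on WT plates 044, 468 and 469. All 3 KO plates lay below all 3 WT plates, a difference of -3.73 in log2 (13.3-fold; SD over plates 0.59 in KO and 0.48 in WT, n = 3 plates each). In the same order of plates, KO gave 120, 71 and 124 cells and WT gave 202, 17 and 29. The values of WT plates 468 and 469 thus rest on few cells, of which 23.5% and 17.2% had a Casq2 read. Of the KO cells in this range 3.17% had a Casq2 read, and of the WT cells 18.1%. By the size rule used for every gene (a mean of at least 10 CPM, a read in at least 10% of cells of one genotype, a fold of 2 or more, and KO plates all above or all below the WT plates), 3.65% of the 9391 measured genes differed, 2.47% higher and 1.18% lower in KO, and 7 of the 10 genes were measured. Casq2 was the only one of the 7 called, and because it was chosen for this difference nothing is read from that count. It was the gene with rank 2 from the lowest difference of all those measured.

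Casq2 was lower in KO in each range that could be compared. Cnn1-high cells are 524 of the 563 cells of the smooth muscle range, so their difference repeats the one Casq2 was selected on. In Cnn1-high cells alone Casq2 was at 3.44, 10.4 and 5.59 CPM in KO against 63.9, 106 and 41.9 CPM in WT, in the same order of plates (-3.27). In Rgs5-high cells it was at 55.7, 3.70 and 19.3 CPM against 385, 273 and 194 CPM (-3.96, 15.6-fold; SD 1.80 and 0.49), and 5.12% of KO against 40.2% of WT cells had a read. In neither range did a KO plate reach a WT plate. WT plates 044, 468 and 469 gave 195, 14 and 26 Cnn1-high cells and 124, 16 and 29 Rgs5-high cells. The Rgs5-high difference moved from -4.83 without KO plate 043 to -3.04 without KO plate 467, which held the highest and the lowest KO level. In Kcnj8-high cells, where only plate 044 had 10 or more WT cells, Casq2 was at 110, 38.5 and 146 CPM in KO, against 617 CPM on plate 044.

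**Figure D1:**
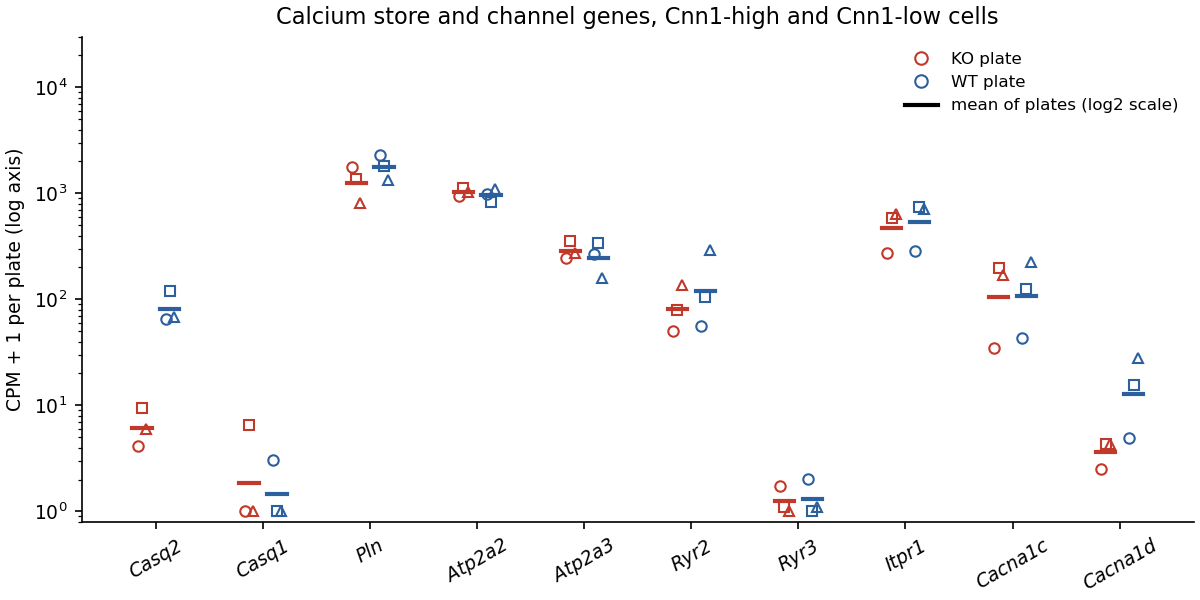
Level of each of the 10 genes in smooth muscle-range cells, as CPM + 1 on a log axis; each open marker is 1 plate (KO in red: circle 043, square 467, triangle 471; WT in blue: circle 044, square 468, triangle 469) and the bar is the mean of plates on the log2 scale. Casq2 is the gene whose KO plates (3.14 to 8.36 CPM) lie far below its WT plates (65.0 to 119 CPM), while the plates of Pln, Atp2a2, Atp2a3, Ryr2, Itpr1 and Cacna1c overlap.

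The cells behind these sums were few and bright. A level of 100 CPM or more of Casq2 was reached by 29 of 775 KO mural cells (3.74%) and 90 of 445 WT mural cells (20.2%), and 731 KO and 318 WT cells had no Casq2 read. In Rgs5-high cells 10 of 332 KO (3.01%) and 56 of 169 WT cells (33.1%) reached it, and in Cnn1-high cells 4 of 289 (1.38%) and 18 of 235 (7.66%). Among the cells at or above 100 CPM the KO median was 535 CPM and the WT median 777 CPM, and the brightest cells had 2663 and 3031 CPM. These medians are taken among cells already selected by their Casq2 level. In Cnn1-high cells they were 332 CPM for the 4 KO cells and 646 CPM for the 18 WT cells.

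Most of the KO cells that held much Casq2 sat in clusters 9 and 10, and most of the WT ones in clusters 1 and 3. Clusters 9 (led by Rgs5, Car4 and Vtn) and 10 (led by Igfbp4, Olfml2a and Gpc6) held 25 of the 29 bright KO cells and 17 of the 90 bright WT cells, with 189 KO and 41 WT cells in all. In clusters 1, 3, 4 and 5, led by contractile genes such as Myh11, 3 of 552 KO cells (0.543%) and 72 of 402 WT cells (17.9%) were bright; cluster 5 gave 184 of these KO but 20 of these WT cells. On the plates this was 1 of 185, 2 of 154 and 0 of 213 cells on KO plates 043, 467 and 471 (a count of 0 in 213 cells allows up to 1.41%), and 55 of 320, 8 of 28 and 9 of 54 on WT plates 044, 468 and 469. In clusters 9 and 10 the bright cells were 11 of 68, 6 of 61 and 8 of 60 in KO and 9 of 18, 7 of 14 and 1 of 9 in WT. There the plate 469 share (11.1%) lay inside the KO range of 9.84% to 16.2%.

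Among clusters with bright cells in both genotypes, the ratio of WT to KO shares was largest in cluster 3. There 1 of 118 KO cells (0.847%) and 42 of 114 WT cells (36.8%) were bright. Cluster 3 is led by Rgs5 and the olfactory receptor gene Olfr558 beside Myh11. In cluster 1 it was 1 of 140 (0.714%) against 26 of 169 (15.4%), in the Cnn1-led cluster 4 it was 0 of 110 (up to 2.73% allowed) against 4 of 99 (4.04%), and in cluster 9 it was 16 of 125 (12.8%) against 16 of 32 (50%). Clusters 5 and 10 did not follow: in cluster 5 it was 1 of 184 KO cells (0.543%) and 0 of 20 WT cells (up to 15% allowed), and in cluster 10 it was 9 of 64 (14.1%) and 1 of 9 (11.1%). Cluster 14 held 1 bright cell among 34 KO cells (2.94%) and 1 among only 2 WT cells. Summed per plate, cluster 9 had 163, 27.8 and 203 CPM in KO, against 1435 and 855 CPM on WT plates 044 and 468. These WT values rest on 10 and 13 cells, and the cells of plate 468 were unlike the others. Their level of Acta2, the smooth muscle actin gene, was 665 CPM, against 4798 CPM on plate 044 and 4056 to 5554 CPM on the KO plates.

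**Figure D2:**
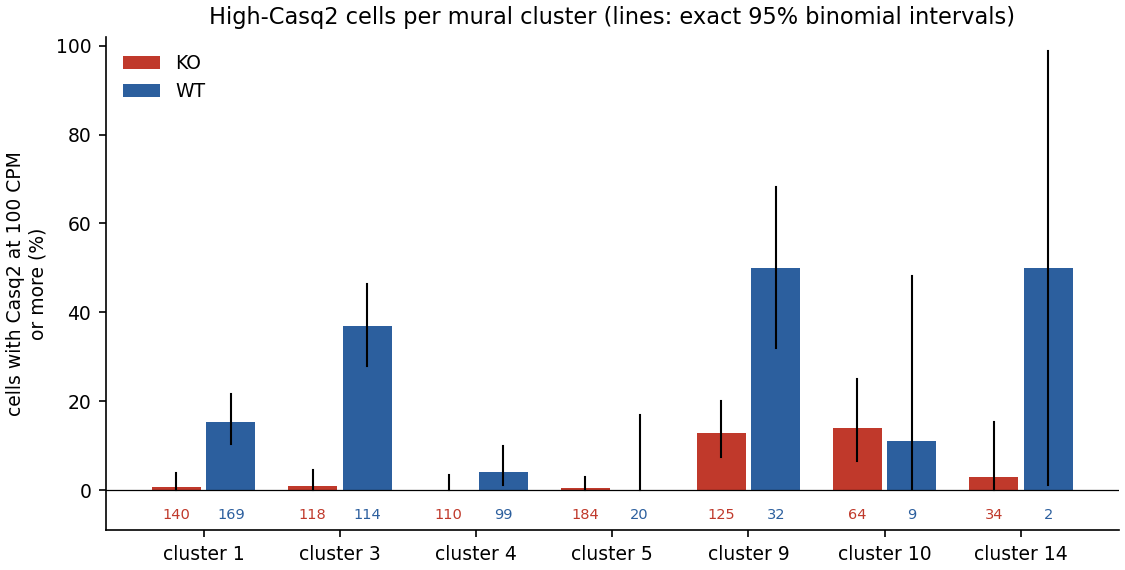
Percent of cells with Casq2 at 100 CPM or more in each mural cluster, KO (red) and WT (blue) cells, with exact 95% binomial intervals that cover counting error only and the number of cells under each bar. WT cells are high in clusters 1 (15.4%), 3 (36.8%) and 9 (50%), and KO cells stand above 10% only in clusters 9 (12.8%) and 10 (14.1%). The WT bar of cluster 14 (50%) is 1 of 2 cells.

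The genotypes did not fill the clusters alike. Of the smooth muscle range, cluster 5, led by Myh11 and the immediate-early genes Nr4a1 and Fosb, held 23.2% of KO and 3.63% of WT cells, cluster 10 held 10.8% and 2.02%, and cluster 1 held 26.7% and 42.7%. Without the cells of cluster 5 the Casq2 difference was -3.46, and among cells of cluster 1 alone it was -6.08; both alternatives were chosen after seeing the data. Kcnj8 was also higher in KO in this range, at 37.0, 16.9 and 18.6 CPM against 8.56, 0.193 and 0.186 CPM. The fibroblast marker list summed to 338 to 402 CPM in KO libraries, above the 219 to 280 CPM of WT libraries, with 2 of its 8 genes higher on every KO plate and none at 0. Casq2 itself was at 0 to 9.11 CPM in the fibroblast-like cluster. The ependymal list summed to 1.21 to 12.2 CPM in KO and 0.578 to 1.09 CPM in WT (4 of 8 genes higher, none at 0). On WT plate 468 the lymphocyte list stood at 151 CPM and the neutrophil list at 60.7 CPM, against 1.76 CPM or less on every other plate for both, and Cd79b was at 0. The part of these differences in the Casq2 result was not tested. Without plate 468 the difference was -3.44, the smallest of those obtained by leaving out each plate in turn (-4.03 to -3.44).

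Among the ranges that could be compared, the mean Casq2 level of the plates was lowest in Cnn1-high and highest in Kcnj8-high cells. Rgs5-high cells exceeded Cnn1-high cells on 5 of 6 plates (log2 difference 1.69, SD 1.67) and lay below them on KO plate 467 (-1.28). Kcnj8-high cells exceeded Cnn1-high cells on all 4 plates with 10 or more such cells (3.54, SD 1.32), of which only plate 044 was WT. On the other WT plates, 6 of 9 Kcnj8-high cells of plate 468 and 0 of 5 of plate 469 had a Casq2 read. A count of 0 in 5 cells allows up to 60%, and 20.7% of the Rgs5-high cells of plate 469 had a read. In Cnn1-low cells a single plate, KO plate 467, held 10 or more cells, and these 11 cells had 0 Casq2 reads, which allows up to 27.3% of cells with one. The same slope was seen when cells were binned by Rgs5, a gene that was not used to place Cnn1-high cells. Of WT Cnn1-high cells, Casq2 was read in 12.1% below 100 CPM of Rgs5, 12.5% from 100 to 1000, 22.9% from 1000 to 3000 and 38.9% at 3000 or more. In KO Cnn1-high cells the same bins held 3.33%, 2.33%, 4.92% and 4.55%. With cells of all plates together, the KO share was below the WT share in every bin. By plate the shares overlapped in the bins below 3000 CPM. Below 100 CPM of Rgs5, KO plate 467 had 13.0% (3 of 23 cells), and WT plates 044, 468 and 469 had 12.9%, 11.1% and 8.33%. The difference in slope was not tested, and WT plate 044 gave 195 of the 235 WT cells. In the remaining mural cells at 3000 CPM or more of Rgs5 the shares were 9.96% of 281 KO and 50.0% of 122 WT cells.

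**Figure D3:**
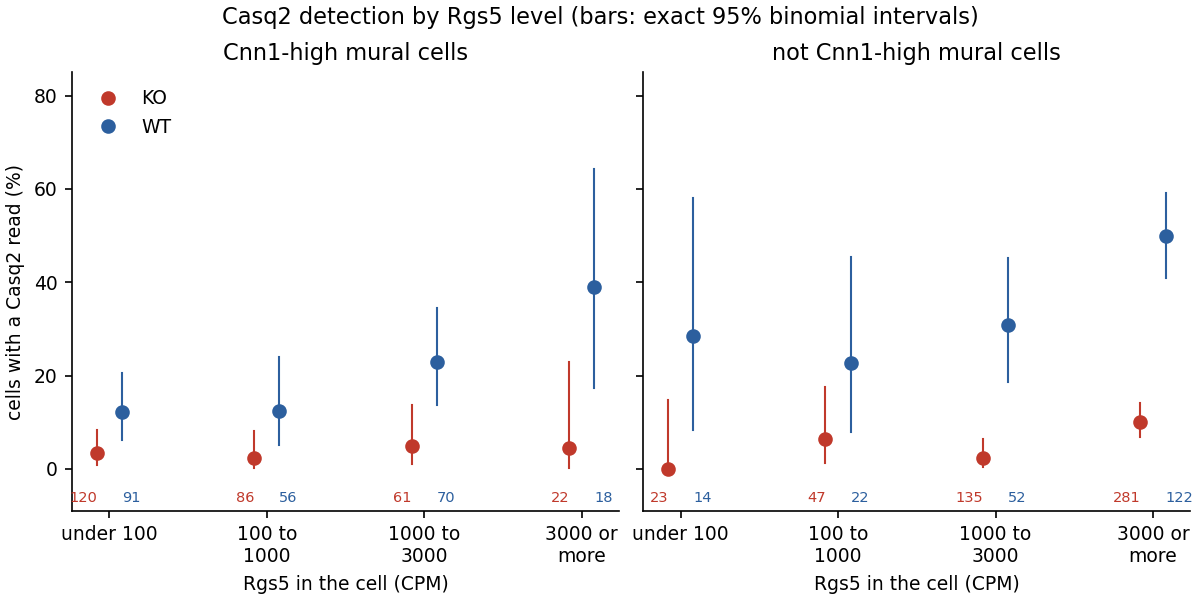
Percent of cells with at least 1 Casq2 read by the cell's Rgs5 level (CPM bins), in Cnn1-high cells and in other mural cells, KO (red) and WT (blue), with exact 95% binomial intervals and the number of cells under each point. With cells of all plates together, the share in WT Cnn1-high cells goes from 12.1% to 38.9% and in KO Cnn1-high cells it is between 2.33% and 4.92%.

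Within a genotype, cells with and without a Notch3 read could be compared. Among KO Cnn1-high cells Casq2 was detected in 9 of 203 cells with a Notch3 read (4.43%) and 1 of 86 without (1.16%), and among KO Rgs5-high cells in 14 of 254 (5.51%) and 3 of 78 (3.85%). Among WT Cnn1-high cells the shares were 34 of 197 (17.3%) and 7 of 38 (18.4%). Of WT Rgs5-high cells 64 of 162 with a Notch3 read (39.5%) and 4 of 7 without (57.1%) had Casq2. In both ranges the WT cells without a Notch3 read were all on plate 044. Among cells of that plate with a Notch3 read, Casq2 was detected in 17.2% of Cnn1-high and 43.6% of Rgs5-high cells. In both ranges the KO shares, with or without a Notch3 read, lay below the WT shares. Depth adds to any share of cells with a read: after thinning each cell to 50000 counts, the Casq2 shares in Cnn1-high cells were 2.42% in KO and 11.1% in WT, against 3.46% and 17.4% with all counts.

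Casq1, the skeletal-type calsequestrin, was nearly absent. Its level in the smooth muscle range was 0, 5.48 and 0 CPM in KO against 2.07, 0 and 0 CPM in WT. It was read in 0.317% of KO and 0.403% of WT cells and did not reach the level needed to be measured. Casq1 (chr1:172209894-172219868, - strand) shares exonic bases with Gm17224 on the other strand, and whether counting used strand is not given in the sources used here. Of the other store buffers on the list, 5 were measured in the smooth muscle range and none passed the size rule. Calu, which encodes a calcium-binding protein of the secretory pathway, had mean levels of 703 CPM in KO and 639 CPM in WT.

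Pln, which encodes phospholamban, the inhibitor of the store pump, was the most abundant of the 10 genes per length of transcript. In the smooth muscle range it was at 1788, 1379 and 809 CPM in KO against 2303, 1793 and 1324 CPM in WT (-0.48; SD 0.58 and 0.40). The plates overlapped, and the difference was below 2-fold. In Rgs5-high cells the values were 1383, 961 and 831 CPM against 2088, 1508 and 1196 CPM (-0.59), again with overlap. Within each plate series the KO mean was lower: the difference was -0.37 between plates 043 and 044 and -0.54 among plates 467, 468, 469 and 471. In Kcnj8-high cells it was 452, 786 and 337 CPM against 1041 CPM on the single WT plate. Pln (its exons overlap those of Cep85l and Gm47644 on the other strand) was read in 97.5% of KO and 99.2% of WT cells of the smooth muscle range.

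Pln ran against Casq2 along the range. Rgs5-high cells were below Cnn1-high cells on 6 of 6 plates (-0.29, SD 0.20), and Kcnj8-high cells were below Cnn1-high cells on 4 of 4 (-1.33). Most WT cells with Casq2 in the Rgs5-high range had Pln as well: 67 had both, 1 had Casq2 alone, 99 had Pln alone and 2 had neither. Of the KO Kcnj8-high cells 10 had both and 7 had Casq2 alone, 4 of these on plate 043 and 3 on plate 471. In the 9 WT Kcnj8-high cells of plate 468, 6 had Casq2 alone and none had Pln (0 of 9 allows a share of up to 33.3%). Their median Acta2, the smooth muscle actin gene, was 3.46 CPM, and their median Rgs5 was 6754 CPM. The 14 WT Kcnj8-high cells of plate 044 all had Pln, 8 of them with Casq2, and a median Acta2 of 4909 CPM. The 2 WT plates thus held unlike cells under the same Kcnj8 cut, and plate 468 had too few of them to enter the plate comparison.

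**Figure D4:**
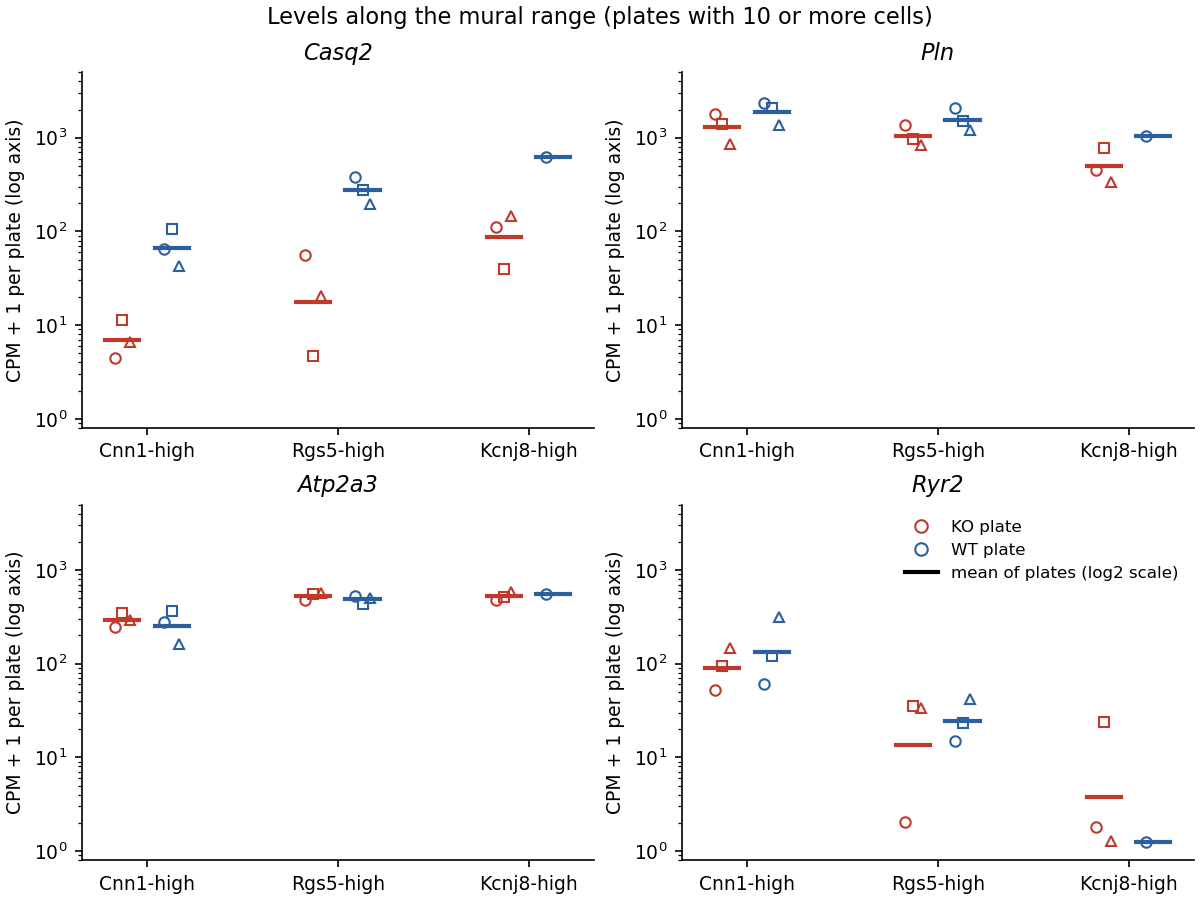
Levels of Casq2, Pln, Atp2a3 and Ryr2 in Cnn1-high, Rgs5-high and Kcnj8-high cells, as CPM + 1 per plate on a log axis for plates with 10 or more cells (KO in red, WT in blue), with bars at the mean of plates on the log2 scale. Casq2 and Atp2a3 are higher in Rgs5-high than in Cnn1-high cells (Casq2 on 5 of 6 plates, Atp2a3 on 6 of 6), and Ryr2 and Pln are lower on 6 of 6.

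Atp2a2, which encodes SERCA2, the main store pump of smooth muscle, showed no separation between the genotypes. It was at 934, 1126 and 1026 CPM in KO and 980, 831 and 1095 CPM in WT smooth muscle-range cells (0.09; SD 0.13 and 0.20). In Rgs5-high cells it was at 957, 1191 and 1025 CPM against 1116, 907 and 1537 CPM. The KO and WT plates overlapped in both ranges. Atp2a3, which encodes SERCA3, was at 244, 354 and 275 CPM against 267, 336 and 159 CPM in the smooth muscle range (0.25). In Rgs5-high cells it was at 475, 549 and 572 CPM against 532, 438 and 495 CPM. The genotypes overlapped here too, but the ranges did not: Atp2a3 was higher in Rgs5-high than in Cnn1-high cells on 6 of 6 plates (0.90, SD 0.44), and the lowest Rgs5-high level, 438 CPM, exceeded the highest Cnn1-high level, 360 CPM.

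Ryr2, the ryanodine receptor gene of heart and smooth muscle, had the opposite slope. In Cnn1-high cells it was at 51.4, 93.2 and 146 CPM in KO, against 59.2, 121 and 313 CPM in WT. In Rgs5-high cells it was at 1.02, 34.6 and 32.5 CPM in KO, against 13.9, 22.1 and 40.6 CPM in WT. Every plate was lower in Rgs5-high cells (-2.59, SD 1.14), and the ranges did not overlap. In Kcnj8-high cells Ryr2 was at 0.787, 23.1 and 0.277 CPM in KO and 0.245 CPM in WT. Among 10017 genes, 2.16% were at least 2-fold lower and 2.39% at least 2-fold higher in Rgs5-high cells with the same sign on every plate. Of the 8 genes of the set that could be compared, Ryr2 was lower by that rule and none was higher. Between genotypes Ryr2 was at 49.0, 78.4 and 136 CPM against 55.4, 105 and 290 CPM in the smooth muscle range (-0.56; SD 0.73 and 1.19), with plates that overlapped.

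Itpr1, the IP3 receptor gene, was at 273, 586 and 635 CPM in KO and 285, 746 and 711 CPM in WT smooth muscle-range cells (-0.19). The plates overlapped. In Rgs5-high cells it was at 419, 470 and 607 CPM against 318, 523 and 592 CPM, and it was lower in Kcnj8-high than in Cnn1-high cells on 4 of 4 plates (-0.58). Ryr3, another ryanodine receptor gene, was at 1.01 CPM or less on every plate in the smooth muscle range, where it was read in 0.635% of KO and 1.61% of WT cells and did not count as measured. Its highest Rgs5-high levels were 3.64 CPM on KO plate 471 and 1.68 CPM on WT plate 469. Itpr1 exons overlap Gm44040 and Gm44101 and Ryr3 exons overlap Aven on the other strand.

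Cacna1c, the pore of the L-type channel of smooth muscle, was at 33.9, 197 and 168 CPM in KO and 42.6, 124 and 224 CPM in WT smooth muscle-range cells (-0.02; SD 1.38 and 1.20). The spread between plates of one genotype far exceeded the difference between genotypes. In Rgs5-high cells it was at 34.7, 190 and 182 CPM against 52.4, 91.1 and 281 CPM, and the Rgs5-high to Cnn1-high difference was -0.03 (SD 0.24). Cacna1d, a second L-type pore gene, was at 1.49, 3.36 and 3.28 CPM against 3.90, 14.5 and 26.8 CPM in the smooth muscle range (-1.83). Its plates did not overlap, as for 8.64% of measured genes in either direction, but only 5.08% of KO and 4.44% of WT cells held a read and the gene did not count as measured. In Rgs5-high cells, where it did, its plates overlapped at 25.4, 9.95 and 18.6 CPM against 9.87, 84.4 and 21.8 CPM (-0.63). Cacna1d exons overlap Chdh on the other strand.

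The spread between plates of one genotype followed the plate numbers. Plates 043 and 044 had 33.9 and 42.6 CPM of Cacna1c, and plates 467, 468, 469 and 471 had 124 to 224 CPM, 4.49-fold more (log2 difference 2.17). Ryr2 was 2.55-fold and Itpr1 2.38-fold higher on the higher-numbered plates, also without overlap, while Atp2a2 (0.08) and Atp2a3 (0.07) were level and Pln was lower (-0.67) with overlap. These 3 genes have 28.8 kb (Ryr2), 21.2 kb (Cacna1c) and 18.3 kb (Itpr1) of exon, against 2.74 kb for Casq2 and 2.76 kb for Pln. Over all measured genes the median difference was -0.30 for exon lengths under 3 kb, -0.38 from 3 to 6 kb, -0.18 from 6 to 12 kb and 0.36 at 12 kb or more (584 genes). The labels do not say what set the plate series apart, and the part of exon length was not tested. Each plate series held both genotypes, and the Casq2 difference was -3.99 between plates 043 and 044 and -3.60 among the other 4.

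**Figure D5:**
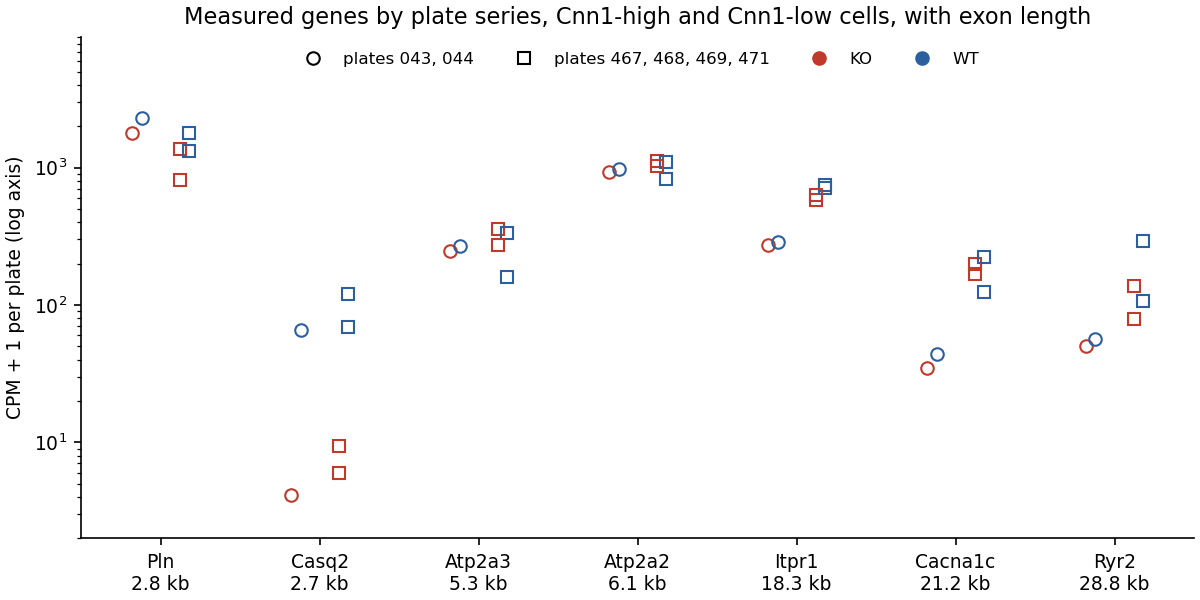
Level of the 7 measured genes in the smooth muscle range, as CPM + 1 per plate on a log axis, with circles for plates 043 and 044, squares for plates 467, 468, 469 and 471, colours for KO and WT, and the exon length in kb under each gene. For Cacna1c, Ryr2 and Itpr1 all squares lie above both circles, and for Casq2 the genotypes lie apart within each plate series.

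Per kb of exon, the order of levels in WT smooth muscle-range cells was Pln (655 ± 177 CPM per kb, SD, n = 3 plates), Atp2a2 (159 ± 21.8), Atp2a3 (48.0 ± 16.9), Itpr1 (31.7 ± 14.0), Casq2 (30.7 ± 11.1), Cacna1c (6.14 ± 4.29), Ryr2 (5.21 ± 4.29) and Cacna1d (1.19 ± 0.906). Pln and Atp2a2 stood apart from the genes after them by more than their spread. The plates of Atp2a3 (30.0 to 63.6 CPM per kb), Itpr1 (15.6 to 40.7) and Casq2 (23.8 to 43.5) overlapped, though Atp2a3 was above Casq2 on each of the 3 plates. Cacna1c and Ryr2 did not differ beyond their spread. In WT Rgs5-high cells Casq2 stood at 104 ± 35.0 CPM per kb beside Atp2a3 at 92.5, and Ryr2 was at 0.887. In the Kcnj8-high cells of plate 044 Casq2, at 226, came next after Pln, at 377, and above Atp2a2, at 145. That last order rests on 14 cells of 1 plate, and in Rgs5-high cells Casq2 and Atp2a3 were not separated beyond their spread.

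Co-detection was compared with the product of the separate shares within plates. Pln and Atp2a2 were each read in 99.2% of WT smooth muscle-range cells, so their count with Casq2 could hardly depart from that product. For Casq2 with Atp2a3, Ryr2, Itpr1 and Cacna1c, the ratio of observed to given WT cells in this range lay between 0.92 and 1.09. For Ryr2 and Itpr1 it was 96 cells against 90.1 in WT and 141 against 141 in KO. Some pairs departed further in WT Rgs5-high cells. There Ryr2 and Itpr1 met in 29 cells where 23.8 are given (odds ratio 5.83), and Casq2 and Cacna1c in 42 where 33.7 are given (odds ratio 2.51). Casq2 and Ryr2 met in 9 WT cells where 12.8 are given (odds ratio 0.506) and in 0 KO cells where 3.15 are given. In KO Rgs5-high cells the Ryr2 and Itpr1 count was 57 against 58.1 and the Casq2 and Cacna1c count 10 against 11.5. The Rgs5-high pairs named here are a few of those compared and use all counts. Cells of unequal depth can raise co-detection, and no thinned values are given for these pairs. The differences from the product were not tested. The median cell held reads of 5 of the 10 genes in Cnn1-high and in Rgs5-high cells of both genotypes.

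Of 69 listed genes of the calcium pathway 39 were measured in the smooth muscle range, where the size rule called 3.65% of all genes. It called 2 of the 39 higher in KO and 1 lower, Casq2, which was chosen for that difference, and the median difference was -0.07 beside 0.08 for all genes. Cacnb3, an auxiliary subunit of voltage-gated channels, was at 74.9, 53.1 and 68.2 CPM in KO against 45.1, 28.0 and 25.5 CPM in WT (1.00). Trpc4, a receptor-operated cation channel gene, was at 20.8, 36.0 and 21.8 CPM against 16.4, 5.78 and 10.4 CPM (1.26). In both genes the lowest KO plate lay above the highest WT plate. In Rgs5-high cells 42 were measured, where 4.19% of all 9335 genes were called: Cacnb3 at 78.2, 49.7 and 84.8 CPM against 21.3, 21.2 and 8.40 CPM (2.07) and Cacnb4, a related subunit gene, at 18.7, 17.2 and 21.8 CPM against 7.12, 7.44 and 0.420 CPM (2.13) were higher, and Casq2 was lower. In Cnn1-high cells, where 4.07% of 9428 genes were called, Casq2 alone of 38 listed genes was called, so the Cacnb3 and Trpc4 calls were not made there. The members of the release channel partner, extrusion and calcium-activated channel lists that were measured all failed the rule in the 3 ranges.

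Along the range, in contrast, the listed genes at least 2-fold higher in Rgs5-high than in Cnn1-high cells, with the same sign on every plate, included Itpr2, Trpc4, Slc8a1 and Ano1, and 2 of the 42 compared were lower (Ryr2 and Kcnma1). Ano1, the calcium-activated chloride channel gene, was at 161 to 323 CPM in Cnn1-high and 754 to 1013 CPM in Rgs5-high cells (2.04). Kcnma1, the large-conductance calcium-activated potassium channel gene, was at 86.1 to 148 CPM and 8.23 to 43.8 CPM (-2.63), and its auxiliary subunit gene Kcnmb1 differed by -0.19. Ryr2 and Kcnma1, which encode proteins that work together in calcium sparks and the outward current they open, were thus both lower in Rgs5-high cells. Over 17 sums of plate and range, Kcnma1 was also the gene most correlated with Ryr2 (Pearson r = 0.91 among 10102 genes).

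For Casq2 the 5 genes of most similar level over the 17 sums were Cox4i2 (r = 0.88), Oaz2 (0.84), Atp1b2 (0.83), Kitl (0.81) and Gm11532 (0.80). Its correlation was 0.68 with Rgs5, 0.63 with Notch3, -0.05 with Pln and -0.42 with Ryr2. For Pln they were Rbpms2 (0.93), Sparcl1 (0.90), Hspa4 (0.89), Ndufb9 (0.87) and Calm2 (0.86). These sums share plates and genotypes, so the values describe this set of libraries. They place Casq2 with the Rgs5 side of the range and Pln with the Acta2 side (0.67).

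Outside the mural cells Casq2 was found mainly in ependymal-like cells (cluster 6), at 78.9, 80.8 and 85.3 CPM in KO against 85.0, 22.1 and 197 CPM in WT, with 31.9% of KO and 51.2% of WT cells holding a read. There the genotypes overlapped. In astrocyte-like cells of WT plates it was at 2.63 CPM or less with a read in 3.70% of cells (median total 252912 counts, against 302247 and 299693 in mural clusters 1 and 4). The 3.17% of KO smooth muscle-range cells with a read did not exceed that share, while their plate levels of 3.14 to 8.36 CPM lay above those of the astrocyte-like cells. In WT endothelial-like cells it was at 32.0 and 71.4 CPM on plates 469 and 468, in 7.41% of cells. The same sums held 1672 and 1754 CPM of Rgs5, and the source of their Casq2 reads was not tested. In WT microglia-like cells Casq2 was at 0 and 53.6 CPM on plates 468 and 469, in 1.82% of cells. Pln had reads in 44.1% of WT astrocyte-like cells at 44.9 and 64.5 CPM, far below its mural level. Atp2a2 was as high in those cells, at 667 and 690 CPM, as the lower end of its mural levels.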

How the data were processed

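Single-cell transcriptomes of sorted brain cells were measured, and the authors deposited 1 table of raw counts per gene and cell (whole-number read counts, not normalized). Per the submitters' processing notes, the tools named are TopHat2 2.1.1, SAMtools 0.1.18 and featureCounts of Subread 1.4.6-p5, with GRCm38/mm10; whether counting used strand is not given in the sources used here. Every column was a labelled cell, and groups came from the labelled Notch3 status. Cells with 50000 counts and 1000 genes were kept (2252 of 2254) and clustered with Python 3.11.15, scikit-learn 1.9.0 and leidenalg 0.10.2: 2000 variable genes, 30 principal components, 20 neighbours, resolution 1, seed 1. No doublet caller was run; 133 mural cells with markers of a second class were left out as an alternative.

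Counts were summed per plate and range (at least 10 cells) and scaled by TMM factors (edgeR 4.0.16, R 4.3.3); the pseudocount was 1 CPM. Smooth muscle-range sums held 4868073 to 56500727 counts. Intervals are exact binomial at 95%, and a count of 0 allows 3 counts; both cover counting error only. Positions and exon lengths come from GENCODE M21, which held all 10 genes, and promoters from RefSeq. The size rule was checked on simulated plates that shared a common mean profile apart from the changes put in. These plates held no difference between plate series, so the check does not give the error rate of the rule in these data. The members, gene lists and rules were chosen with earlier results of these data known. Named beside the 10 genes are pathway genes past the size rule or most abundant in their list, and, for Casq2 and Pln, the 5 genes of highest correlation; the genes that lead clusters, Kcnma1 beside Ryr2 and the pathway genes that differed along the range were chosen after their values were seen. Some results are not reported here.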

Additional observations from a re-analysis of the deposited data

How the results depend on the processing

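The plate difference of Casq2 in the smooth muscle range, -3.73, stayed lower by the size rule under every alternative run. It was -2.57 with a pseudocount of 10 CPM, -5.37 with Leiden clusters in place of single-gene cuts, -3.11 over all mural cells, -3.16 without cells holding markers of a second class, -1.10 as a mean of per-cell log2 values and -6.08 in cluster 1 alone, an alternative chosen after seeing the data. Leaving out each plate in turn gave -4.03 to -3.44. The count of genes past the size rule, 343 with 67.6% of them higher, was 202 with a pseudocount of 10 CPM, 828 with a 1 CPM minimum and no share of cells, 183 over all mural cells, 679 on plates 043 and 044, 1384 on the other 4 plates, and 449 to 1351 leaving out each plate in turn (1351 without WT plate 044, 587 without KO plate 043, 585 without WT plate 469 and 550 without KO plate 471). Per-cell log2 values made 83.6% of the calls higher. The count of set members past the rule, 1, was 2 with the 1 CPM minimum and 2 on plates 467, 468, 469 and 471, each time by adding Cacna1d. DESeq2 1.42.0 size factors gave 355 genes. Of the other member differences, recomputed under the planned settings, 172 moved by less than the spread between plates and 8 by more. Under the settings that were not planned, 23 moved by less and 4 by more. No result changed sign where it was called. The cause of these shifts was not tested. Cnn1-low cells alone, and equal weights for Cnn1-high and Cnn1-low cells, were not run because a single plate held 10 or more Cnn1-low cells. No paired analysis was possible because the plate numbers name plates and pair no KO plate with a WT plate. The levels of Casq1, Ryr3 and Cacna1d rest on few cells; thinning each cell to 50000 counts left the Casq1 shares in Cnn1-high cells at 0.346% in KO and 0.426% in WT.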
